A study of Mus musculus with 8 samples.

Results

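The transcripts of 10 genes were followed, 7 matrix metalloproteinases (Mmp2, Mmp3, Mmp9, Mmp10, Mmp13, Mmp14 and Mmp19) and 3 tissue inhibitors of metalloproteinases (Timp1, Timp2 and Timp3). They were taken by name, through the RefSeq transcript each probe was designed to, from 25799 genes and unnamed probes that could be tested, and were represented by 11 of 55681 probes. Matrix metalloproteinases are zinc enzymes that cut collagens and other proteins of the extracellular matrix. Most are secreted as inactive proenzymes and are activated when the propeptide is removed, and the Timp proteins block the active site. In fat tissue they take part in the matrix remodelling that goes with the differentiation and growth of fat cells.

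The cells were mouse 3T3-L1, an established fibroblast line used as a model of fat cell formation, grown with 10% fetal calf serum and kept for 1 week in adipogenic medium. They were then given conditioned medium, diluted 2-fold, of HL-60, a human promyelocytic leukemia line made macrophage-like by 5 days with 30 nM of the phorbol ester PMA. In the control groups the HL-60 cells carried a mock vector, and in the knockdown groups they carried a knockdown of USP2, an enzyme that removes ubiquitin from proteins. Total RNA was prepared 3 h or 6 h later, with 2 one-colour arrays for each of the 4 groups, labelled control 3 h, knockdown 3 h, control 6 h and knockdown 6 h. All groups received medium of PMA-treated human cells, and no array of cells without such medium, or before its addition, was analysed here. The arrays measured mouse transcripts, so USP2 in the HL-60 cells was not measured. The labels name the arrays biological replicates, without saying whether wells shared a supernatant preparation, and p-values therefore measure only the spread between these samples.

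All 8 arrays lay on 1 slide, with control arrays in columns 1 and 2, knockdown arrays in columns 3 and 4, 3 h arrays in row 1 and 6 h arrays in row 2. The supernatant cannot be told apart from the slide column, nor the time from the slide row. Between 50.7% and 55.9% of spots were well above background on an array, and the number of arrays limits the precision. The control 6 h arrays differed most from each other, by a mean of 0.288 on the log2 scale over all genes tested, against 0.142 to 0.194 in the other groups. The labels call the cells adipocytes. Of 12 adipocyte markers, 5 were detected well above background on every array (Pparg, Cebpa, Fabp4, Lpl and Retn) and 6 on none, among them Adipoq, Cfd and Slc2a4, while all 12 markers of preadipocytes and fibroblasts were detected on every array.

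Mmp10 was higher with knockdown than with control supernatant at both times, by 2.49-fold at 3 h and 4.45-fold at 6 h. Its difference was the largest among the 10 genes at each time. Mmp13 and Timp1 were higher with knockdown than with control supernatant at 6 h, by 1.88-fold and 1.61-fold. These calls did not hold in every alternative setting, and of 21 such settings Mmp10 passed in 8 at 3 h. Mmp2, Mmp3, Mmp9, Mmp14, Mmp19, Timp2 and Timp3 did not pass the test between supernatants at either time. Within a supernatant, Timp3 was higher at 6 h than at 3 h in both. Genes passed at a Benjamini-Hochberg adjusted p under 0.05, taken across all 25799 genes and probes, with limma's moderated test. Values below are log2 signals relative to the 75th percentile of the same array, so that a difference of 1 is a 2-fold change, and they were read for 1 gene at a time because probes differ in brightness. All 10 genes were well above background on all 8 arrays.

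**Figure D1:**
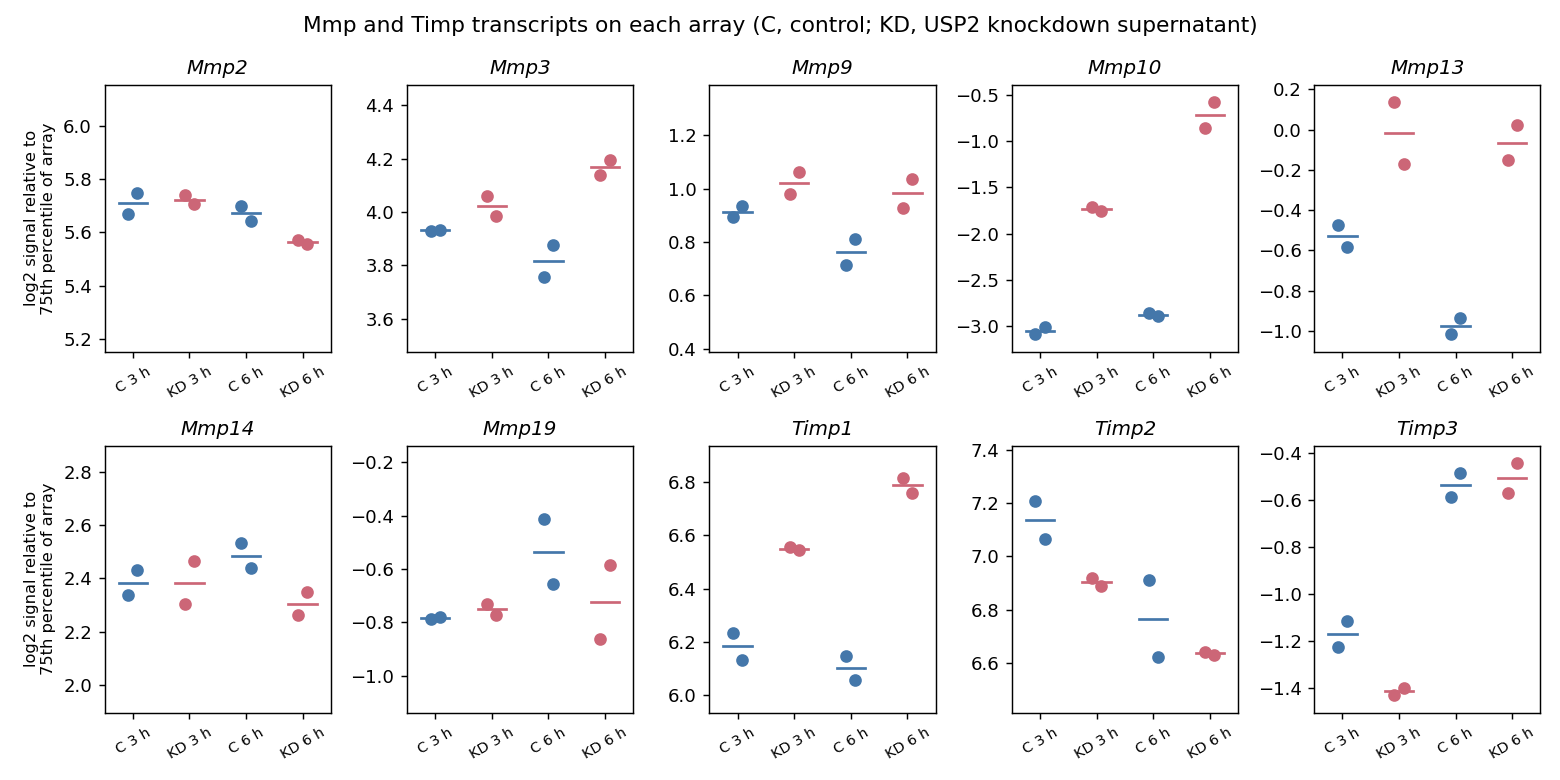
Log2 signal relative to the 75th percentile of the array for each of the 10 genes. Each point is 1 array and each short line the mean of the 2 arrays of a group; the vertical scales differ between genes. Knockdown arrays lie above control arrays for Mmp10, Mmp13 and Timp1 at both times, and also for Mmp3 and Mmp9, which did not pass. The share of all genes that separate in this way is not given here. For Mmp10 at 6 h the knockdown arrays measured -0.86 and -0.58 and the control arrays -2.86 and -2.89.

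Mmp10 and Mmp3 encode stromelysins, secreted enzymes with broad matrix substrates that also activate other proenzymes of the family, and Mmp13 encodes a collagenase. The bases before their start sites are shown because Mmp10 and Mmp13 were both higher with knockdown supernatant at 6 h. All 3 windows held the AP-1 motif, which Fos and Jun proteins bind, and this was a further reason to show them. Timp1 is shown beside them as the inhibitor that was higher with knockdown supernatant at 6 h. The windows are the 250 bases before the RefSeq start in build GRCm38.p6, all on the plus strand: chr9:7502092-7502341, chr9:7272264-7272513, chr9:7445572-7445821 and chrX:20869916-20870165. Capitals mark matches to the AP-1 motif TGANTCA and to the TATA box TATAAA.
Mmp10: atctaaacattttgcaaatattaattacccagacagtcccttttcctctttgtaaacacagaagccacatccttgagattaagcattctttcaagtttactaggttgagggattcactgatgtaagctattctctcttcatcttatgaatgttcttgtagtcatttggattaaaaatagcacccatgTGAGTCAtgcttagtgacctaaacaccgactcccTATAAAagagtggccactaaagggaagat
Mmp13: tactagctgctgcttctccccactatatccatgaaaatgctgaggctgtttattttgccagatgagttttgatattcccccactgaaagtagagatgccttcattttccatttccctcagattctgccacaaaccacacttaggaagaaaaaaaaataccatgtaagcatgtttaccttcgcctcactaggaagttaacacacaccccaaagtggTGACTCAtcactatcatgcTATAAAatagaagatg
Mmp3: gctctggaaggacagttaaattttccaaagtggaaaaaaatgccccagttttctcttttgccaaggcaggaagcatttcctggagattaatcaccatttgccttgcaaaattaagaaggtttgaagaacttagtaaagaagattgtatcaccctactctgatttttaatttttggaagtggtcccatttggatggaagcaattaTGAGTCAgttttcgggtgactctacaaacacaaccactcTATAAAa
Timp1: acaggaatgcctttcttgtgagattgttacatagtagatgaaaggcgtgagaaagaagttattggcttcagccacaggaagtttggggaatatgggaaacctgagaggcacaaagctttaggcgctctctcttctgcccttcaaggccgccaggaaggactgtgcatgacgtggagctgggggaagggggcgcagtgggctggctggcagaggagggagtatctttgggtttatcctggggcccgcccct
The AP-1 match began at position -63 from the start in Mmp10, -35 in Mmp13 and -46 in Mmp3, and the TATA match at -29, -16 and -7. The letters were TGAGTCA in Mmp10 and Mmp3 and TGACTCA in Mmp13. Both strands were searched; TGANTCA reads the same on the other strand, and the motifs did not overlap. Of the 10 genes, 7 had an entry in the promoter table, and neither motif was found in this window of Mmp14, Timp1, Timp2 or Timp3. TGANTCA occurred in 6.75% and TATAAA in 12.4% of 32851 RefSeq windows of the same length. The windows of Mmp10, Mmp13 and Mmp3 were shown with their matches known, so these shares are no test of them. A match is a description of the letters, and no binding was measured. Positions count from the RefSeq start, and where transcription begins in these cells was not measured.

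Mmp10 measured -3.09 and -3.01 (control 3 h), -1.71 and -1.76 (knockdown 3 h), -2.86 and -2.89 (control 6 h) and -0.86 and -0.58 (knockdown 6 h). Every knockdown array lay above every control array. In processed signal units the Mmp10 spot went from 57.9 and 68.5 (control 3 h) to 158 and 145 (knockdown 3 h), and from 65.8 and 83.7 (control 6 h) to 299 and 389 (knockdown 6 h). The log2 difference was 1.32 at 3 h (SE 0.10, adjusted p = 0.0244) and 2.15 at 6 h (SE 0.10, adjusted p = 0.00349), with 95% intervals of 2.09- to 2.97-fold and 3.73- to 5.30-fold. The 3 h call did not hold without any of the 8 arrays in turn: the difference stayed between 1.28 and 1.35, and the adjusted p lay between 0.051 (without either control 6 h array) and 0.268 (without knockdown 3 h replicate 1). Of 21 alternative settings, Mmp10 passed in 8 at 3 h and in 20 at 6 h, with each array left out among the latter; a fit to the 4 arrays of 6 h gave an adjusted p of 0.168. The gene is dim, and with another background correction its log2 difference at 6 h was 1.44 and still passed. At 3 h the lowest difference over the 21 settings was 0.78.

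Mmp13 measured -0.47 and -0.58 on the control 3 h arrays and 0.14 and -0.17 with knockdown supernatant. At 6 h its values were -1.02 and -0.94 with control and -0.15 and 0.02 with knockdown supernatant. Groups did not overlap at either time, and the control values were lower at 6 h than at 3 h. The log2 difference was 0.51 at 3 h (SE 0.12, adjusted p = 0.227) and 0.91 at 6 h (SE 0.12, adjusted p = 0.0285). The 6 h call held only without control 6 h replicate 2; without each of the other 7 arrays the adjusted p was 0.0505 to 0.112, and the difference 0.83 at the lowest (without knockdown 6 h replicate 2). Of 21 alternative settings Mmp13 passed in 9 at 6 h, with an adjusted p of up to 0.188.

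Mmp3 measured 3.93 on both control 3 h arrays and 4.06 and 3.98 with knockdown supernatant, then 3.76 and 3.88 (control) and 4.14 and 4.20 (knockdown) at 6 h. The groups did not overlap, but the differences of 0.09 at 3 h (SE 0.07, adjusted p = 0.759) and 0.35 at 6 h (SE 0.07, adjusted p = 0.0764) missed the threshold. Without control 6 h replicate 2 the 6 h difference was 0.41 and passed (adjusted p = 0.0448). With a trended robust spread Mmp3 also passed, at 6 h (adjusted p = 0.0126) and in the average (difference 0.22, adjusted p = 0.0187, against 0.0865 in the main setting). The 95% interval at 6 h ran from 1.13- to 1.44-fold.

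The gelatinases Mmp2 and Mmp9 cut denatured collagen and the type IV collagen of basement membranes. Mmp2 measured 5.67 and 5.75 (control 3 h), 5.74 and 5.71 (knockdown 3 h), 5.70 and 5.64 (control 6 h) and 5.57 and 5.56 (knockdown 6 h). Arrays overlapped at 3 h and not at 6 h, where the difference of -0.11 (SE 0.06, adjusted p = 0.397) did not pass. Mmp9, measured by 10 spots of 1 probe, was at 0.89 and 0.94 (control 3 h), 0.98 and 1.06 (knockdown 3 h), 0.71 and 0.81 (control 6 h) and 0.93 and 1.04 (knockdown 6 h). Knockdown arrays lay above control arrays at both times, with differences of 0.11 (SE 0.08, adjusted p = 0.720) and 0.22 (SE 0.08, adjusted p = 0.207) that did not pass. The spots of Mmp9 had a coefficient of variation of 5.27% to 8.31% on 7 arrays and 14.3% on control 3 h replicate 1, where they ran from 599 to 1097 signal units.

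Mmp14, the membrane-bound enzyme that activates proMmp2 at the cell surface, measured 2.34 and 2.43 (control 3 h), 2.30 and 2.46 (knockdown 3 h), 2.53 and 2.44 (control 6 h) and 2.26 and 2.35 (knockdown 6 h). Its arrays overlapped at 3 h and not at 6 h, and its differences of 0.00 (SE 0.09, adjusted p = 1.00) and -0.18 (SE 0.09, adjusted p = 0.316) did not pass. Its spot on control 6 h replicate 1, the highest value, lay in a locally bright area of that array. Mmp19, a secreted enzyme that cuts basement membrane proteins, measured -0.79 and -0.78 (control 3 h), -0.73 and -0.77 (knockdown 3 h), -0.41 and -0.66 (control 6 h) and -0.86 and -0.58 (knockdown 6 h). The groups overlapped at 6 h and not at 3 h, and neither difference passed (0.03 and -0.19, SE 0.12, adjusted p = 0.983 and 0.444). For these 4 genes the 95% intervals at 6 h lay between -0.49 and 0.40 on the log2 scale. That of Mmp9, from 0.03 to 0.40, lay wholly above no difference, although Mmp9 did not pass after adjustment. Those of Mmp2, Mmp14 and Mmp19 spanned no difference.

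Timp1, a secreted inhibitor of most enzymes of the family, measured 6.23 and 6.13 (control 3 h), 6.55 on both arrays (knockdown 3 h), 6.15 and 6.06 (control 6 h) and 6.81 and 6.76 (knockdown 6 h). Every knockdown array lay above every control array. The log2 difference was 0.37 at 3 h (SE 0.07, adjusted p = 0.140) and 0.68 at 6 h (SE 0.07, adjusted p = 0.0138). Without either knockdown 3 h array, or either knockdown 6 h array, the 6 h difference was 0.66 to 0.71 with an adjusted p of 0.0502 to 0.0801, and without each of the 4 control arrays it passed. Of 21 alternative settings Timp1 passed in 14 at 6 h, with an adjusted p of up to 0.195.

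Timp2, which both inhibits Mmp2 and helps Mmp14 to activate it, had 2 probes. The brighter one, used in the fit, measured 7.21 and 7.07 (control 3 h), 6.92 and 6.89 (knockdown 3 h), 6.91 and 6.62 (control 6 h) and 6.64 and 6.63 (knockdown 6 h). Its knockdown arrays lay below control at 3 h and overlapped with control at 6 h, with differences of -0.23 (SE 0.11, adjusted p = 0.541) and -0.13 (SE 0.11, adjusted p = 0.545) that did not pass. The fainter probe lay between 4.46 and 4.64 on all 8 arrays, with differences of 0.06 and -0.06. Timp3, an inhibitor bound to the matrix, measured -1.22 and -1.11 (control 3 h), -1.43 and -1.40 (knockdown 3 h), -0.59 and -0.49 (control 6 h) and -0.57 and -0.44 (knockdown 6 h). Knockdown arrays lay below control arrays at 3 h, where the difference of -0.25 (SE 0.08, adjusted p = 0.359) did not pass, and overlapped with them at 6 h, where the difference was 0.03 (SE 0.08, adjusted p = 0.852).

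**Figure D2:**
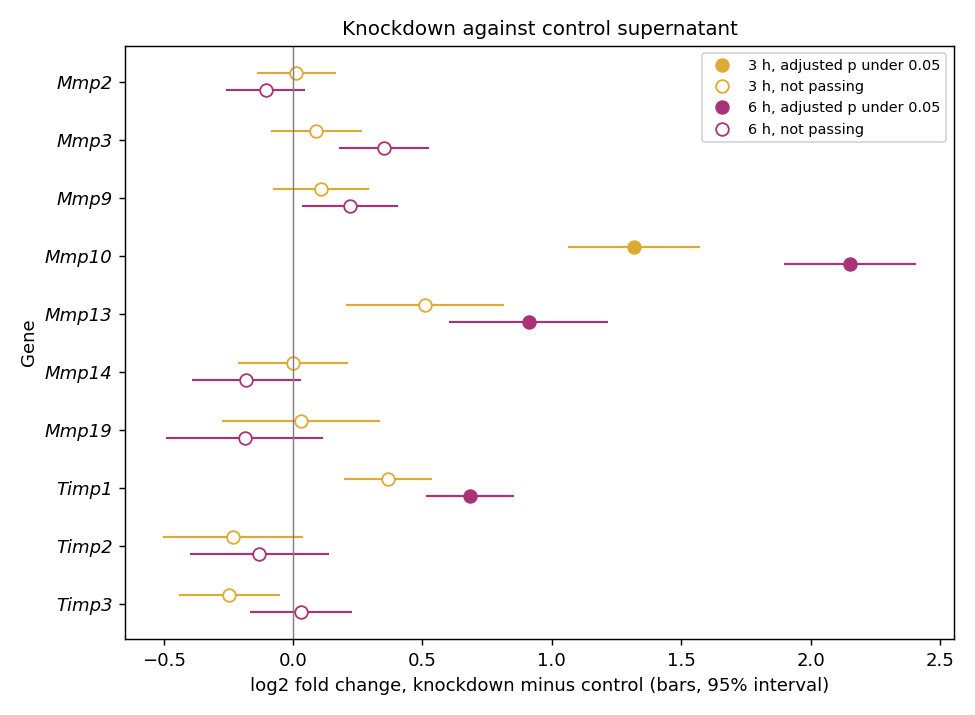
Log2 fold change of knockdown against control supernatant at 3 h and 6 h for each gene, with 95% intervals of the fitted model; filled points had an adjusted p under 0.05. Mmp10 passed at both times (1.32 and 2.15), Mmp13 (0.91) and Timp1 (0.68) at 6 h, and the open points did not pass.

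Between supernatants, 1 of the 10 genes was higher and 0 lower at 3 h, where 0.225% of all genes and probes tested were called higher and 0.0194% lower. At 6 h 3 were higher and 0 lower, against 1.60% and 0.698% of all. Averaged over both times the same 3 genes, Mmp10, Mmp13 and Timp1, were higher and 0 lower, against 2.16% and 0.965% of all. The 10 genes were chosen with earlier results of these data known, so these shares are no test of them. The averaged log2 differences of Mmp10, Mmp13 and Timp1 were 1.73 (SE 0.07, adjusted p = 0.0015), 0.71 (SE 0.09, adjusted p = 0.0175) and 0.53 (SE 0.05, adjusted p = 0.00831). Leaving out 1 array, the averaged call held each time for Mmp10. For Timp1 it was lost without either knockdown 3 h array (adjusted p = 0.0584 and 0.0561). For Mmp13 it was lost without control 3 h replicate 1 or 2 (0.0768 and 0.0827), knockdown 3 h replicate 1 (0.0584) or knockdown 6 h replicate 1 or 2 (0.0507 and 0.0561). The median log2 difference of the 10 genes was 0.06 at 3 h and 0.13 at 6 h, against -0.02 and 0.00 over all genes and probes tested. Centring arrays on their median instead moved the median of all to 0.06 and 0.19, and the split of all calls at 6 h from 413 higher and 180 lower to 967 and 108; the calls of the 3 genes at 6 h were the same.

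The summed level of the macrophage and leukocyte markers, in multiples of the 75th percentile, was 42.8 to 44.7 on control and 53.2 to 55.0 on knockdown arrays at 3 h, and 38.0 to 43.3 and 38.6 to 41.5 at 6 h. Most of this sum came from 1 bright probe, that of the integrin chain Itgam, named after its values were seen, with 36.9 to 38.2 on control and 46.5 to 48.5 on knockdown arrays at 3 h. The other 10 genes summed to 5.88 to 6.46 and 6.43 to 6.68. Itgam itself did not pass at 3 h (log2 difference 0.34, SE 0.09, adjusted p = 0.256), and the median difference of the 6 genes tested was 0.00 at 3 h and -0.13 at 6 h. Cd14, a receptor for bacterial lipopolysaccharide, was the only one of the 6 to pass between supernatants, and only in the average (0.47, SE 0.06, adjusted p = 0.0168). Its call held only without either control 6 h array, with an adjusted p of 0.0566 to 0.0862 without each of the other 6. Of the 11 on the array, 6 were above background on all 8 arrays, and Ptprc, Adgre1, Tyrobp and Cd52 on none. Their part in the 3 h differences was not tested. Endothelial markers summed to between 9 and 12.6 on all arrays, with 4 of 8 above background on all arrays and Cdh5, Tek and Tie1 on none. The adipocyte markers summed to 58.2 to 61.7 at 3 h and 53.8 to 56.0 at 6 h, and the preadipocyte and fibroblast markers to 1340 to 1400 and 1270 to 1380. In RNA of a whole culture, fewer cells of a type and less RNA per cell cannot be told apart.

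With time in control supernatant, Timp3 was higher at 6 h than at 3 h by 0.63 on the log2 scale (SE 0.08, adjusted p = 0.00192). Mmp13 (difference -0.45, SE 0.12, adjusted p = 0.0337) and Timp2 (difference -0.37, SE 0.11, adjusted p = 0.0412) were lower. With knockdown supernatant Timp3 rose by 0.91 (SE 0.08, adjusted p = 0.000611), Mmp10 by 1.01 (SE 0.10, adjusted p = 0.000974) and Timp1 by 0.24 (SE 0.07, adjusted p = 0.0402). These are 1 higher and 2 lower with control supernatant, where 16.3% of all were called higher and 23.6% lower, and 3 higher and 0 lower with knockdown supernatant, where the shares were 17.7% and 22.2%. Changes with time were thus common among all genes, and these counts say little of the 10. With the median as the centre, 2649 of all were higher and 9734 lower in control supernatant against 4200 and 6093 in the main setting, and 3446 and 7063 against 4566 and 5734 in knockdown supernatant.

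The Timp3 calls in both supernatants and the Mmp10 call held without each array in turn. The Timp1 call was lost without either control 3 h array (adjusted p = 0.058 both times), knockdown 3 h replicate 1 or 2 (0.138 and 0.148) and knockdown 6 h replicate 1 or 2 (0.159 and 0.0944), and with median centring (0.14, adjusted p = 0.167). The Mmp13 call was lost without control 3 h replicate 1 or 2 (0.152 and 0.0827) and control 6 h replicate 1 or 2 (0.102 and 0.0656). The Timp2 call held only without control 6 h replicate 1. It was lost without control 3 h replicate 1 or 2 (0.186 and 0.0768), either knockdown 3 h array (0.0762), control 6 h replicate 2 (log2 difference -0.23, adjusted p = 0.0989) and either knockdown 6 h array (0.0701). The probes of Timp2 disagreed: the fainter one differed by 0.02 (SE 0.07) with time in control supernatant, and the mean of both probes by -0.18 (adjusted p = 0.125). With no scaling, and with no filter on dim probes, the calls of Timp1, Mmp13 and Timp2 were all lost. That of Mmp13 was also lost with array weights and with the replicate block, and that of Timp2 with only the 4 arrays compared.

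**Figure D3:**
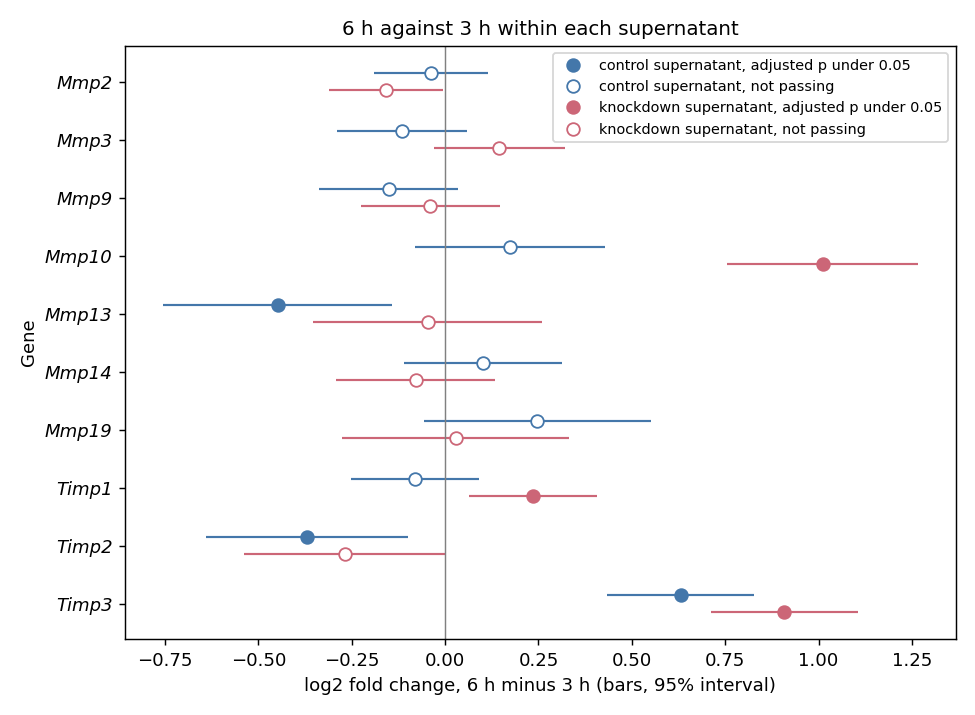
Log2 fold change of 6 h against 3 h within control and within knockdown supernatant, with 95% intervals of the fitted model; filled points had an adjusted p under 0.05. Timp3 passed in both supernatants (0.63 and 0.91), and Mmp10 differed by 1.01 with knockdown and 0.17 with control supernatant.

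The difference between the 6 h and the 3 h effect of the supernatant was tested as an interaction, and 0 of the 10 genes passed, as did 0% of all genes and probes tested. At an unadjusted p under 0.05 limma gave 3 of the 10 and 2272 of 25799. The 3 were Mmp10, where the effect was larger at 6 h by 0.84 (SE 0.15, adjusted p = 0.314), Timp1 by 0.32 (SE 0.10, adjusted p = 0.503) and Mmp3 by 0.26 (SE 0.10, adjusted p = 0.548). Every alternative setting that could be run gave 0 calls among the 10. A larger effect at 6 h was therefore not shown for any of them.

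Mmp13, Mmp3 and Mmp10 lie in the metalloproteinase cluster of mouse chromosome 9, whose order in RefSeq is Mmp13, Mmp12, Mmp1b, Mmp3, Mmp1a, Mmp10, Mmp8, Mmp27, Mmp20 and Mmp7. Of these 10 neighbours, 5 could be tested, 3 of them among the 10 genes followed. The log2 difference of knockdown against control supernatant was above 0 for these 5 at both times, as it was for 45.6% of all genes and probes tested at 3 h and 50% at 6 h. The genes were chosen with earlier results of these data known, and the filter favoured this direction for Mmp1a. These shares are therefore no test of the 5. At 3 h the 95% intervals of Mmp3 and Mmp1a included 0. Mmp1b, a gene related to interstitial collagenase, measured -3.69 and -4.22 with control and -3.21 and -3.32 with knockdown supernatant at 3 h. At 6 h its values were -3.94 and -3.82 with control and -2.71 and -2.83 with knockdown supernatant. Knockdown arrays lay above control arrays at both times, by 0.69 at 3 h (SE 0.18, adjusted p = 0.255) and 1.11 at 6 h (SE 0.18, adjusted p = 0.0433). The 6 h call of Mmp1b was lost without either knockdown 3 h array (0.112), control 6 h replicate 1 (0.0979) or knockdown 6 h replicate 1 or 2 (0.166 and 0.130). It was also lost with another background correction, where the difference was 0.41 (adjusted p = 0.111). Mmp1a, above background on 6 of 8 arrays, differed by 0.33 at 3 h (SE 0.26, adjusted p = 0.762) and 0.78 at 6 h (SE 0.26, adjusted p = 0.196). It was above background on 2 arrays in each knockdown group but on 1 in each control group. It therefore passed the filter only through the groups where it was higher. Mmp1a and Mmp1b are close copies, and signal of one on the probe of the other was not tested. Mmp12, Mmp8, Mmp20 and Mmp7 were not tested, as their probes were not well above background on both arrays of any group. Mmp27 was not analysed here.

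**Figure D4:**
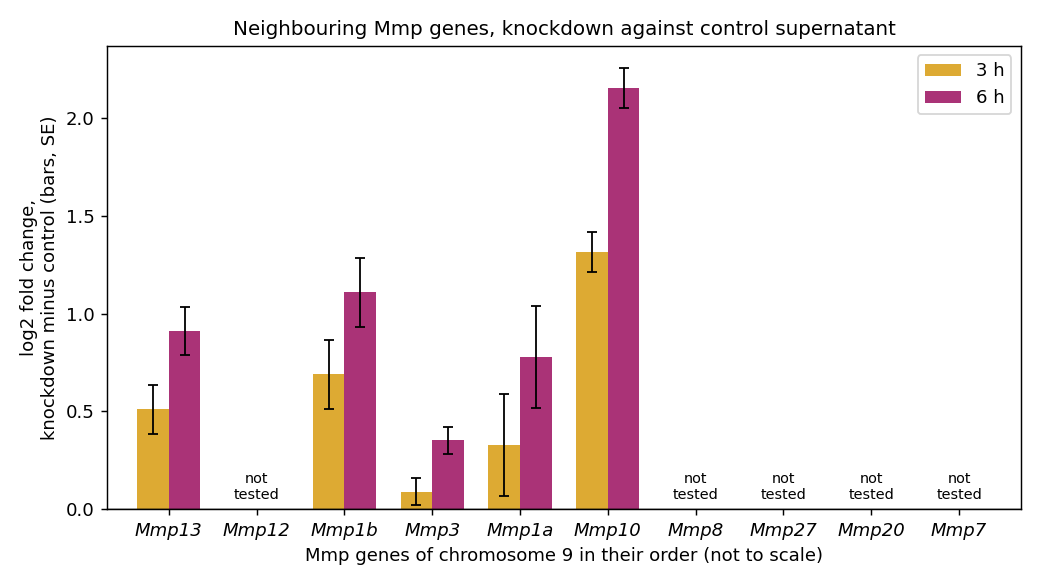
Log2 fold change of knockdown against control supernatant at 3 h and 6 h for the Mmp genes of chromosome 9 in their order, with standard errors. The 5 genes tested lie above 0 at both times, from 0.35 (Mmp3) to 2.15 (Mmp10) at 6 h. Mmp1a passed the filter only through its knockdown arrays. The others were not tested.

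Of 17 other Mmp and Timp genes, 5 could be tested. Besides Mmp1b, which passed at 6 h and in the average (0.90, SE 0.12, adjusted p = 0.0248), 0 of them passed between supernatants. The averaged call of Mmp1b was lost without knockdown 3 h replicate 1 or 2 (0.116 and 0.105) or knockdown 6 h replicate 1 or 2 (0.0874 and 0.0676), and with the other background correction, where the difference was 0.36 (adjusted p = 0.052). The median of the 5, with Mmp1a among them, was 0.14 at 3 h and 0.27 at 6 h. Of 19 genes that activate or hold back the enzymes, 11 could be tested, and 1 was higher at 3 h, 3 at 6 h and 3 in the average, with 0 lower. Of all genes and probes tested, 0.225%, 1.60% and 2.16% were called higher. This list too was chosen with earlier results of these data known, so these shares are no test of it. The median of the 11 was 0.07 at 3 h and 0.23 at 6 h. Serpinb2, an inhibitor of plasminogen activators, Plaur, the urokinase receptor, and Cd44, a hyaluronan receptor, made up these calls. Plasmin, formed at the urokinase receptor, removes the propeptide of several Mmp proteins. Serpinb2 differed by 1.94 at 3 h (SE 0.12, adjusted p = 0.0162) and 2.66 at 6 h (SE 0.12, adjusted p = 0.00343). At 6 h Plaur differed by 1.29 (SE 0.09, adjusted p = 0.00722) and Cd44 by 0.53 (SE 0.07, adjusted p = 0.0254). The 6 h calls of Serpinb2 and Plaur held without each array in turn. The Cd44 calls held only without control 6 h replicate 2, with an adjusted p without each of the other 7 of 0.0544 to 0.0958 at 6 h and 0.0574 to 0.148 in the average. The 3 h call of Serpinb2 held only without either control 6 h array, with an adjusted p of 0.0684 to 0.236 without each of the other 6.

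Of the 19 matrix substrates tested, among them collagen, laminin and fibronectin genes, 0 passed between supernatants at 3 h, at 6 h or averaged, by limma. Their median was -0.01 at 3 h and -0.03 at 6 h. The smallest p-values in the average were those of the laminin chain Lamb1 (0.14, SE 0.04, adjusted p = 0.140) and the collagen chain Col4a2 (0.19, SE 0.06, adjusted p = 0.144). At an unadjusted p under 0.05, limma gave 1 of the 19 at 3 h, 3 at 6 h and 3 in the average, against 10.6%, 19.3% and 19.7% of all genes and probes tested, so that these counts were near or below the background. With time, Vcan, a matrix proteoglycan, was higher in both supernatants (0.59 and 0.65, SE 0.09, adjusted p = 0.00322 and 0.00241), and the other 18 did not pass, where 16.3% and 17.7% of all were called higher.

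AP-1, Ets and Runx factors are known to bind promoters of Mmp genes. Of 12 such genes, all tested, 1 was higher at 3 h (Fos), 3 at 6 h (Fos, Fosl1 and Junb) and 5 in the average (also Fosl2 and Runx1), with 0 lower, against 0.225%, 1.60% and 2.16% of all called higher. The 12 were listed with earlier results of these data known, so the shares of all genes are no test of them. Their median was 0.37 at 3 h and 0.40 at 6 h. Fos differed by 0.95 at 3 h (SE 0.08, adjusted p = 0.0294) and 0.89 at 6 h (SE 0.08, adjusted p = 0.0104). At 6 h Fosl1 differed by 0.93 (SE 0.09, adjusted p = 0.012) and Junb by 0.99 (SE 0.10, adjusted p = 0.0152), and Fosl2 by 0.36 in the average (SE 0.04, adjusted p = 0.0178). The 3 h call of Fos held only without either control 6 h array, with an adjusted p of 0.108 to 0.268 without each of the other 6. The 6 h calls of Fos and Fosl1 were lost without knockdown 6 h replicate 1 (0.054 and 0.0608), and that of Junb without either knockdown 3 h array (0.0558) or knockdown 6 h replicate 1 or 2 (0.0815 and 0.0617). The averaged call of Junb was lost without knockdown 3 h replicate 1 (0.0522). The Fosl2 call held only without either control 6 h array, with an adjusted p of 0.0602 to 0.0957 otherwise. With time, 9 of the 12 fell in control and 7 in knockdown supernatant, and 0 rose, where 23.6% and 22.2% of all were called lower.

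Genes whose pattern was most like that of a member were found among 12555 named genes above background on all 8 arrays, as those with the smallest root mean square difference of log2 values after centring each gene on its own mean. For Mmp10 these were Serpina3f (0.241), Ccn2 (0.271), Serpina3i (0.340) and Hp (0.346), where the median gene differed by 0.971. A gene that did not change at all would differ by 0.943, the spread of Mmp10 itself, so the median mostly reflects that spread. Serpina3f, a serine protease inhibitor, differed between supernatants by 1.37 at 3 h and 2.08 at 6 h, and Ccn2, a secreted matrix-associated protein, by 1.26 and 1.49. For Timp1 the nearest were Gsto1 (0.0662), Tm4sf1 (0.0685), Pdpn (0.0738) and Ext1 (0.0774), against 0.347 for the median gene and 0.279 for an unchanging gene. For Mmp13 they were Bcar3 (0.125), Hmga2 (0.126), Akr1c18 (0.126) and Eva1a (0.128), against 0.435 for the median gene and 0.401 for an unchanging gene. All patterns shared the same 8 arrays, so these values describe likeness on these arrays and nothing further.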

How the data were processed

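Groups and replicate numbers came from the labels. The deposited scanner files give a processed signal per spot, a background-subtracted intensity on a linear scale, per the file headers, and per the submitters' processing notes the software was Agilent Feature Extraction 10.7.3.1. Spots marked as outliers (163 to 319 of 59305 per array) were left out, and 0 spots were saturated. The 75th percentile of an array was subtracted from its log2 signals, and replicate spots were averaged. Among 55681 probes, a RefSeq transcript named 27235 and a symbol or synonym 20; the other 28426 were tested without a gene name. Names came from RefSeq annotation of GRCm38.p6. Its coordinates were used only for the promoter windows and for the order of genes in the metalloproteinase cluster. Probes had to be well above background on both arrays in 1 or more groups (30113 probes), and the brightest probe stood for a gene.

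A model of 4 group means over all 8 arrays was fitted with limma 3.58.1 in R 4.3.3 (lmFit and eBayes, 4 residual and 1.74 prior degrees of freedom), with Benjamini-Hochberg adjustment over all 25799 genes and probes in each of 6 comparisons. SE and 95% intervals are those of the model. Alternatives were other scalings, background, filters, probe rules, spreads, samples in the fit, the replicate number as a block, masked bright areas (a window of 11 by 11 spots raised by over 0.3 on the log2 scale) and each array left out. The background alternative (normexp, offset 50) used the deposited median spot and background intensity. The authors' deposited value table holds log2 values, judged from its values: each column followed the log2 processed signal apart from a constant for the array (correlation 1.00), with medians of -4.15 and -4.18 (control 3 h), -4.23 and -4.24 (knockdown 3 h), -3.96 and -4.06 (control 6 h) and -4.12 and -4.23 (knockdown 6 h). It was not centred per gene, and how its shift was set is not given in the sources used here. On data simulated for the 6 h comparison over 25715 genes, the fit found 63 of 100 genes changed by 1 and 83 of 100 changed by 2 on the log2 scale, with 11 false calls. The simulated noise was normal and independent between genes, with no deviation shared within an array and no bright areas. These figures therefore need not hold for the arrays themselves.

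The genes described, the gene lists and the rule for named genes were chosen with earlier results of these data known. The rule named all 10 Mmp and Timp genes, up to 4 called genes per list with the smallest averaged p (2 for a list with no call) and 4 genes most like each of the 3 Mmp or Timp genes with the smallest averaged p. An item of the lists is not reported here and was left out of their counts. Mmp1a, Runx1, Vcan, Itgam and Cd14 were named outside it, after their values were seen. Figures were drawn with Python 3.11.15 and matplotlib 3.10.9.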

Additional observations from a re-analysis of the deposited data

How the results depend on the processing

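Of the 10 Mmp and Timp genes, 1 was called between supernatants at 3 h, 3 at 6 h, 3 in the average, 3 with time in each supernatant and 0 for the difference of effects. No called gene changed direction under any alternative run. At 3 h the count was 0 with median centring, with no scaling, with no filter on dim probes and with only the 4 arrays compared, and 2 with a trended robust spread. At 6 h it was 1 with no scaling, 1 with no filter and 0 with only the 4 arrays compared; in the average it was 1 with no scaling and 1 with no filter. With the trended robust spread it was 4 at 6 h and 4 in the average, with Mmp3 added, and with array weights it was 2 at 6 h. With time in control supernatant it was 5 with median centring, 1 with no scaling and 1 with no filter, and with time in knockdown supernatant 5 with the trended robust spread. Leaving out 1 array gave 0 at 3 h, 1 to 4 at 6 h, 1 to 4 in the average, 0 for the difference, 1 to 2 with time in control and 2 to 4 with time in knockdown supernatant; fewer arrays also leave fewer degrees of freedom. Causes of the other changes were not tested. A fit to only 4 arrays gives no value for the average and the difference of effects.

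With the replicate number as a block the counts were 0 at 3 h, 2 at 6 h, 3 in the average, 2 with time in control and 3 in knockdown supernatant. Deviations of same-numbered arrays correlated by -0.0465 to 0.0867 between groups, so no strong shared deviation was seen. Whether same-numbered samples shared a supernatant or culture cannot be told from these values.

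Calls among all genes and probes moved more. At 3 h 63 became 25 with median centring, 0 with no scaling, no filter, only the 4 arrays or the block, 126 with the other background, 193 with probes above background on all 8 arrays, 354 with the trended robust spread and 310 with array weights. With 1 array left out they numbered 35 (either control 6 h array), 2 (control 3 h replicate 2) or 0 (each of the others). At 6 h 593 became 1075 with median centring, 96 with no scaling, 18 with no filter, 1308 with the trended spread, 194 with array weights, 0 with only the 4 arrays, 223 with the block, 872 and 1955 without control 6 h replicate 1 and 2, and 144 to 356 without each other array. In the average 807 became 1220 with median centring (1113 of them higher, from 558 of 807), 150 with no scaling, 76 with no filter, 1580 with the trended spread, 510 with the block and 109 to 2000 with 1 array left out. With no scaling 51 were higher and 45 lower at 6 h, 2869 and 2870 with time in control and 3684 and 1814 in knockdown supernatant. For the difference of effects, 0 became 1 to 16 under 6 settings and up to 294 with 1 array left out. Median centring moved the median of all with time in control supernatant from -0.07 to -0.28 and for the difference of effects from 0.03 to 0.14.

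The named pathway genes, Cd14 and the genes of like pattern were recomputed under the same alternatives, an addition made after the data were seen. Mmp10 and Mmp1b are dim, and the other background, which adds an offset, lowered their fold changes.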
